A study of Rattus norvegicus with 24 samples.

Results

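The major histocompatibility complex (MHC) genes and the genes that load peptides onto their products were followed through 24 samples of rat lung tissue. The set was chosen by name: every gene in the table whose symbol starts with H2- or RT1-, plus Ciita, Cd74, B2m, Tap1, Tap2, Tapbp, Psmb8, Psmb9, Psmb10 and Nlrc5. It held 53 of the 30667 genes measured, namely 43 with an H2- symbol, 0 with an RT1- symbol and the 10 named one by one. By role these were 30 class I chain genes, 12 class II chain genes, 2 partners of class II (Cd74 and Ciita), 2 partners of class I (B2m and Nlrc5), 6 genes of peptide supply to class I, and H2-Ke6, which lies in the MHC but belongs to neither class. All 53 passed the filter on low values, a mean of at least 0.5.

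The series describes a rat lung cancer model set up with smoky coal, and messenger RNA was sequenced from lung tissue. A sample's title joins 1 of 4 letters, A, B, C and G, to 1 of 6 numbers, and every combination occurs in 1 sample, so that 6 samples share a letter and 4 share a number. All 24 samples carry the protocol label smoky coal. The labels give no strain, age, dose, time or control, and they do not say what the letters or the numbers stand for. They also do not say that samples came from separate animals, so p-values measure only the spread between these samples, which may be technical.

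MHC class I molecules sit on nearly all nucleated cells and show peptides cut in the cytosol by the proteasome to CD8 T cells. MHC class II molecules are made mainly by dendritic cells, B cells and macrophages, and in the lung also by alveolar type 2 cells, and show peptides from the endosome to CD4 T cells. Ciita switches on the class II genes and Nlrc5 the class I genes, and interferon gamma raises both sets.

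Both regulators act without binding DNA themselves, through factors that sit on short elements before the gene start, the X and Y boxes. Promoters are shown because the expression data below separate the class II chain genes from the peptide supply genes. The names in the table are mouse names, while the sequences are those of the rat genes in RefSeq (build GRCr8): RT1-B is the rat counterpart of mouse H2-A, RT1-D of H2-E, and RT1-DM of H2-DM. Each line gives the 150 bases before the start, 5′ to 3′ on the gene's strand. In the first 5 lines capitals mark GATTGG, the core of the Y box, or its reverse complement CCAATC, and ACNGATG, the 3′ part of the X box.
RT1-Ba: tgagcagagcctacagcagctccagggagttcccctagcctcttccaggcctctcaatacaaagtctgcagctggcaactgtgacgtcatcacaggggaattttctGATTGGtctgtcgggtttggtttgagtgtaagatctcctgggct
RT1-Bb: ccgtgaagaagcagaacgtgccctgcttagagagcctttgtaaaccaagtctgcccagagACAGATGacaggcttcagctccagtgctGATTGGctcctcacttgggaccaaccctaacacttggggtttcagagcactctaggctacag
RT1-Da: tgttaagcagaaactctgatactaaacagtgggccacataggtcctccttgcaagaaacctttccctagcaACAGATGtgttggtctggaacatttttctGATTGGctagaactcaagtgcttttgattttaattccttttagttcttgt
RT1-Db1: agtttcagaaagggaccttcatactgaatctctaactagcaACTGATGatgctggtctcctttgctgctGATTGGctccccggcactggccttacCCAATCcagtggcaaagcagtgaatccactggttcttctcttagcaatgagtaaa
RT1-DMa: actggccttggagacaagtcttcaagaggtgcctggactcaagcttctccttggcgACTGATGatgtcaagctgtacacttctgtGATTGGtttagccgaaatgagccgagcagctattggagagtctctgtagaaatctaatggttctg
In the next 3 lines, from genes of the class I side, capitals mark the core of an interferon response element, which is GAAA, any 2 bases and GAAA again, on either strand.
B2m: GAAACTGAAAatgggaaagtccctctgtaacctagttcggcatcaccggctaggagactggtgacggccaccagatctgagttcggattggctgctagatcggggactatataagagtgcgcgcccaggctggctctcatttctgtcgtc
Tap1: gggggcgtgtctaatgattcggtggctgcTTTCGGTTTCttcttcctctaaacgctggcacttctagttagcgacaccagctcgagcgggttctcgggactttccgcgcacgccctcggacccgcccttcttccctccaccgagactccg
Psmb10: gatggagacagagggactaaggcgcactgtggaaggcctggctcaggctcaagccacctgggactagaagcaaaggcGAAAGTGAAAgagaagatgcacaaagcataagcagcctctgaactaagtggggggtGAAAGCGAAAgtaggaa
The windows lie at chr20:4576907-4577056, plus strand (RT1-Ba); chr20:4604119-4604268, minus strand (RT1-Bb); chr20:4515265-4515414, plus strand (RT1-Da); chr20:4560163-4560312, minus strand (RT1-Db1) and chr20:4712336-4712485, minus strand (RT1-DMa). Those of the class I side lie at chr3:129549180-129549329, plus strand (B2m), chr20:4668544-4668693, minus strand (Tap1) and chr19:50743293-50743442, minus strand (Psmb10).

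Over the 250 bases before the start, searched on both strands, GATTGG was in 9 of the 9 class II chain genes with a RefSeq entry, against 13.3% of all 33469 promoters of the same length. It was in 1 of 7 class I side genes (B2m) and in 15 of 33 rat class I chain genes. ACNGATG was in 6 of the 9 class II chain genes, in 0 of the 7 class I side genes, in 10 of the 33 class I chain genes and in 8.55% of all promoters. In the 6 class II genes that held both, the first base of ACNGATG lay 26 to 29 bases before the first base of GATTGG. The interferon response element core was in 0 of 9 class II chain genes and in 5 of 7 class I side genes (B2m, Tap1, Tap2, Tapbp and Psmb10), against 3.41% of all promoters. It was in 3 of the 33 class I chain genes. In these class II and class I side genes no match of 1 motif overlapped a match of another, and the 2 interferon response element matches of Tapbp overlapped each other. A match describes letters, not a bound site.

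**Figure D1:**
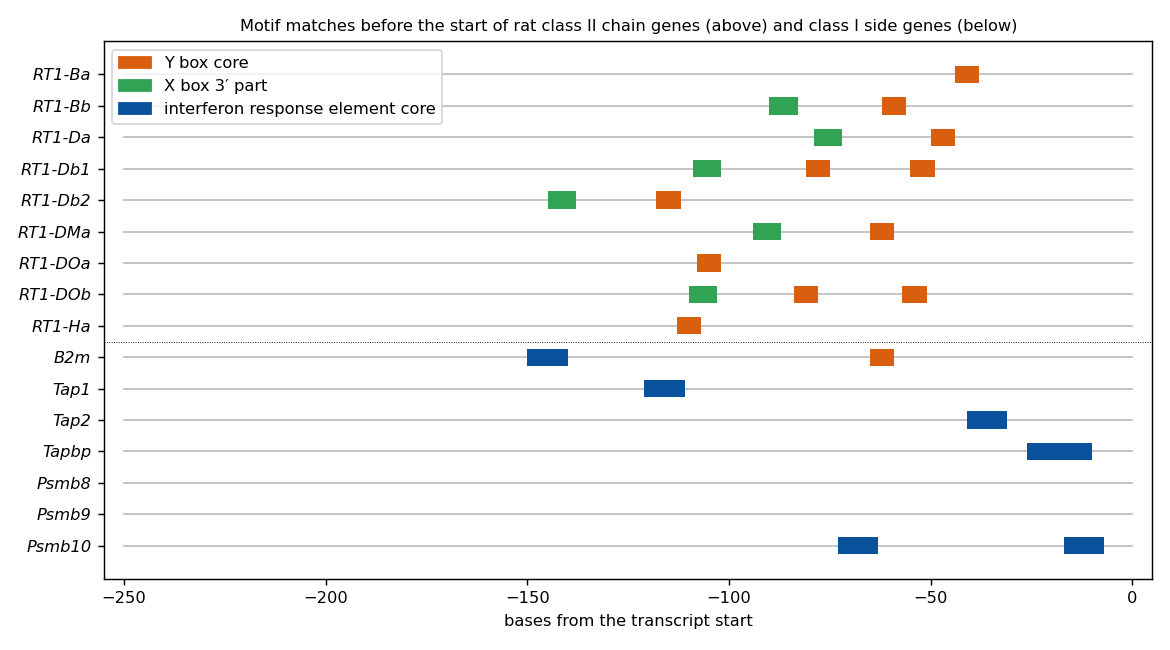
Motif matches in the 250 bases before the transcript start of 9 rat class II chain genes (above the dotted line) and 7 class I side genes (below it), with bases from the start on the x axis. Y box cores are in all 9 class II genes, X box parts in 6 of them, and interferon response element cores in 5 of the 7 class I side genes.

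Values are normalized read counts per gene, which are not divided by gene length, so levels are compared between samples and not between genes. Their sum per sample ran from 61717516 to 66007148, and the depth before normalization is unknown. Mouse gene symbols are used for rat tissue, and the submitters' processing notes name GRCm38, a mouse build, without saying what it was used for. Many class I chain genes are near-identical copies between which reads can be split, so the values of single H2-D, H2-K, H2-Q, H2-T and H2-M genes are uncertain, and 20 of the 30 had a mean of at least 100. The row H2-Ea-ps carries a mouse pseudogene name, and its rat counterpart, RT1-Da, is a working class II alpha chain gene.

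The first question was whether the genes differed between the letters. By limma's F test over the 4 letters, 0 of the 53 genes passed an adjusted p (Benjamini-Hochberg over all genes) of 0.05, beside 0.00652% of all genes. At an unadjusted p under 0.05 there were 2, H2-M10.5 and H2-T22, against 3.91% of all genes. In each of the 6 pairs of letters the count was likewise 0, beside 0.00652% of all genes for G with A and for G with C, 0.00326% for G with B, and 0% for the other 3 pairs. At an unadjusted p under 0.05 limma held 2 of the genes for B with A (3.58% of all genes), 1 for C with A (2.98%), 2 for C with B (1.82%), 1 for G with A (8.15%), 1 for G with B (3.67%) and 3 for G with C (4.03%). A count of 0 does not show that the letters are alike, so intervals are given. They come from the model of the letters alone, so they and the SDs include the spread between the numbers within a letter.

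Cd74, the invariant chain that guides class II molecules to the endosome, averaged 72886 ± 26328 normalized counts in A, 75778 ± 36363 in B, then 65051 ± 11566 for C and 76130 ± 31023 for G (SD, n = 6). G differed from A by 0.05 on the log2 scale, with a 95% interval from -0.44 to 0.54. Ciita, the class II transactivator, averaged 1964 ± 1632, 1579 ± 857, 1588 ± 791 and 1460 ± 788 in the same order (SD, n = 6). Its G minus A difference was -0.28 on the log2 scale, with an interval from -1.02 to 0.46. B2m, the light chain of every class I molecule, averaged 35640 ± 7390, 31701 ± 2142, 32515 ± 3492 and 33403 ± 3085 (SD, n = 6). Its G minus A difference was -0.08, with an interval from -0.28 to 0.12. Tap1, a subunit of the peptide transporter, averaged 9099 ± 5610, 7062 ± 817, 7610 ± 2015 and 7162 ± 1344 (SD, n = 6), and G differed from A by -0.21, with an interval from -0.65 to 0.23. In each of the 4 letters the sample numbered 2 held the highest value of Cd74, Ciita and H2-Ab1.

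The second question was therefore how the genes ran over the numbers. By limma's F test over the 6 numbers, 21 of the 53 genes (39.6%) passed, beside 30.3% of all genes. The class II side made up most of them: 11 of 12 class II chain genes, Cd74 and Ciita. The other 8 were B2m, Tapbp, Psmb8, Psmb9, and the class I chain genes H2-D1, H2-K1, H2-T24 and H2-M10.5-ps1. In the contrast of number 2 against the mean of the other 5 numbers, 27 of the 53 genes were called, beside 20.8% of all genes. Of these, 26 were higher in the samples numbered 2 (11.0% of all genes were) and 1 was lower (9.74% of all genes were). In bulk tissue, more cells of a type and more RNA per cell cannot be told apart, and this holds for every difference below.

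**Figure D2:**
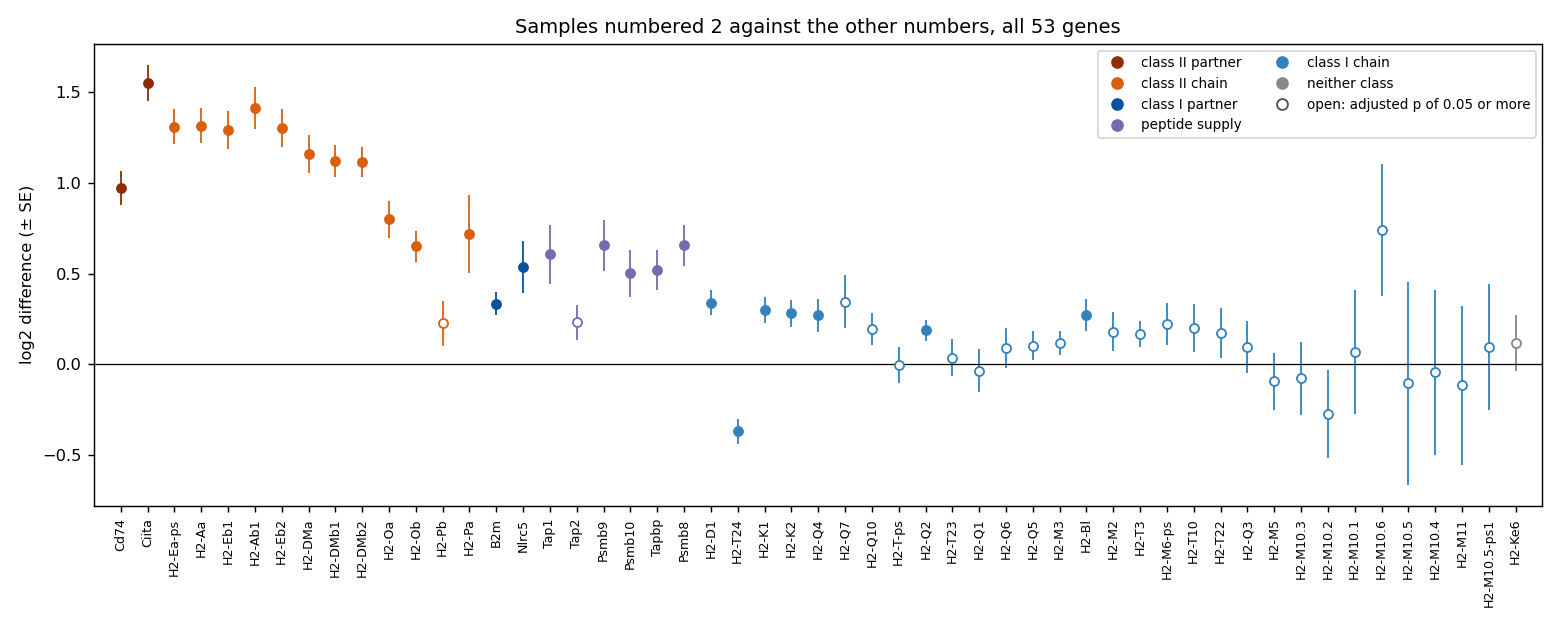
Difference between the samples numbered 2 and the mean of the other 5 numbers for all 53 genes, as log2 difference ± SE from limma, with filled points at an adjusted p under 0.05. The 2 class II partners and 11 of 12 class II chain genes are filled and above 0.6, the called peptide supply genes lie from 0.50 to 0.66, and most class I chain genes are open and near 0.

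The regulator of class II showed the widest shift of the set. Ciita measured 5265 in A2, 3307 in B2, 3167 in C2 and 3037 in G2, against 983 to 1645 in the other 20 samples with a median of 1186. The 4 samples numbered 2 lay above all others, with A2 the highest of them. The difference was 1.55 on the log2 scale (SE 0.098, limma adjusted p = 1.45e-09). Cd74 measured 123297 in A2, 148634 in B2, 85181 in C2 and 138399 in G2, against 52616 to 78778 in the other 20 samples with a median of 61537. Here too the groups did not overlap, though the order within number 2 was different, with B2 highest and C2 lowest. Cd74 was higher by 0.97 on the log2 scale (SE 0.095, limma adjusted p = 3.7e-07).

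The classical class II chains bind the peptide that is shown to the T cell. H2-Ab1, the beta chain of the A molecule, measured 33167 in A2, 43862 in B2, 22770.5 in C2 and 35437 in G2, against 9489.6 to 16807 in the other 20 samples with a median of 11979. H2-Aa, its alpha chain, measured 43073 in A2, 49755 in B2, 28876 in C2 and 47476 in G2, against 12825 to 22203 in the other 20 samples with a median of 16488. In both genes B2 was the highest sample and C2 the lowest of the 4 numbered 2, which was still above every other sample. H2-Ab1 was higher by 1.41 on the log2 scale (SE 0.12, limma adjusted p = 3.01e-08) and H2-Aa by 1.32 on the log2 scale (SE 0.098, limma adjusted p = 1.22e-08).

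H2-Ea-ps, which stands for the alpha chain of the E molecule, measured 54482 in A2, 60835 in B2, 35759.9 in C2 and 56749.9 in G2, against 15309 to 27221 in the other 20 samples with a median of 20830.0. H2-Eb1, its beta chain, measured 32287 in A2, 41121 in B2, 22416 in C2 and 36901 in G2, against 10659 to 17417 in the other 20 samples with a median of 13415. Both repeated the order B2, G2, A2, C2, and neither overlapped with the other numbers. Their differences were 1.31 on the log2 scale (SE 0.097, limma adjusted p = 1.22e-08) and 1.29 on the log2 scale (SE 0.11, limma adjusted p = 3.01e-08). H2-Eb2, a second beta chain gene of the E molecule, was higher by 1.30 (adjusted p = 3.01e-08).

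**Figure D3:**
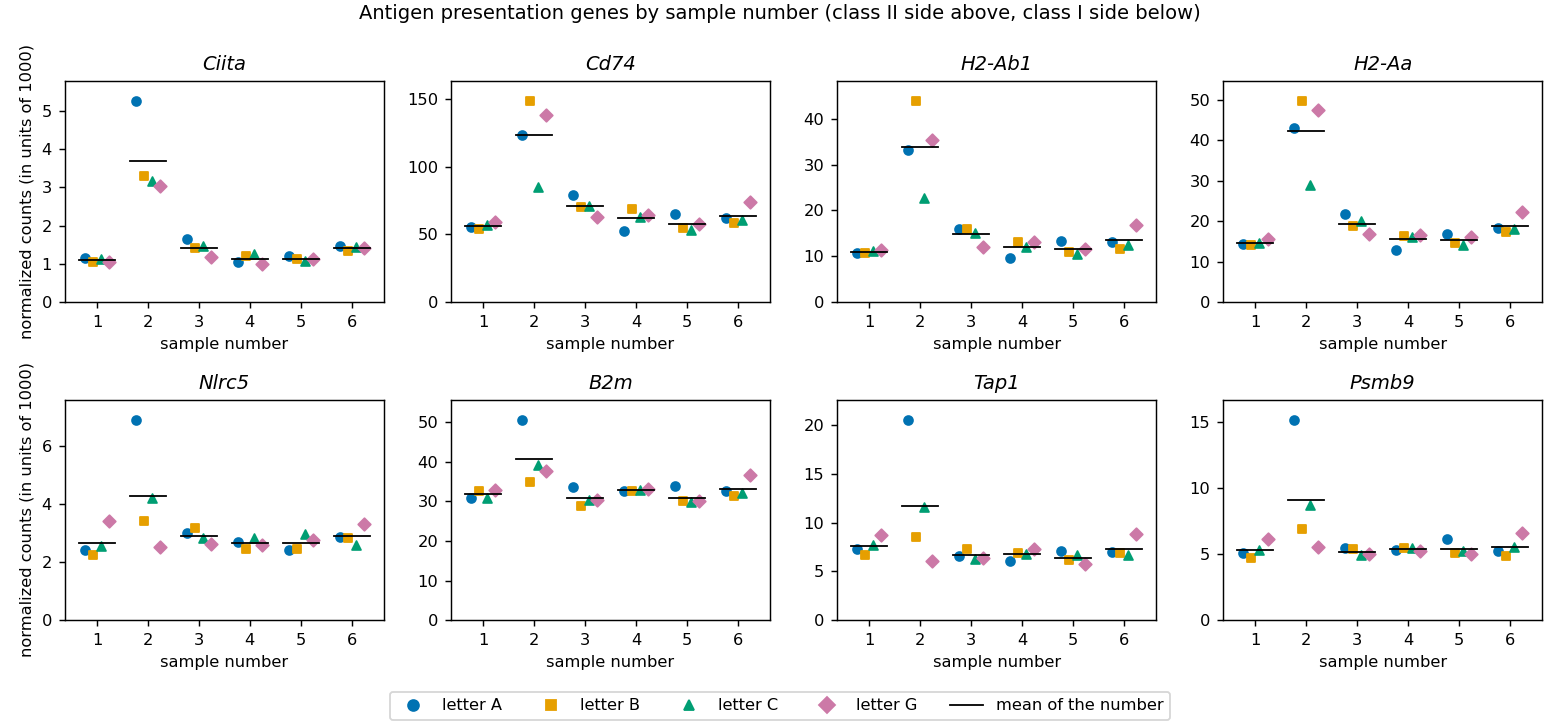
Normalized counts (in units of 1000) of 4 class II side genes (upper panels) and 4 class I side genes (lower panels) by sample number, each point a sample, marked by letter, and each bar the mean of a number (n = 4). In the upper panels all 4 samples numbered 2 lie above the other 20, while in the lower panels A2 is highest and G2 lies near the other numbers.

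The non-classical class II chains handle the peptide exchange. The DM molecule takes the Cd74 remnant out of the groove, and its genes were higher by 1.16 (H2-DMa), 1.12 (H2-DMb1) and 1.12 (H2-DMb2) on the log2 scale. The limma adjusted p-values were 1.09e-07, 2.33e-08 and 1.22e-08. The DO molecule restrains DM and is known mainly from B cells and some dendritic cells. H2-Oa, its alpha chain, measured 817 in A2, 759 in B2, 637 in C2 and 660.3 in G2, against 266 to 653 in the other 20 samples with a median of 389. H2-Ob, its beta chain, measured 578 in A2, 779 in B2, 567 in C2 and 617 in G2, against 319 to 522 in the other 20 samples with a median of 389.7. H2-Oa in C2 was below the highest sample of the other numbers, which was numbered 6, and H2-Ob did not overlap. Their differences were 0.80 on the log2 scale (SE 0.10, limma adjusted p = 9.48e-06) and 0.65 on the log2 scale (SE 0.085, limma adjusted p = 1.2e-05). H2-Pa was higher by 0.72 (adjusted p = 0.0191), and was at 0.62 (adjusted p = 0.0799) without B2 and 0.68 (adjusted p = 0.0629) without C2, so that the call ended with little change in the difference. H2-Pb, at 0.23 (adjusted p = 0.225), did not pass.

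Counting samples alone, all 4 samples numbered 2 lay above the other 20 in 11 of the 53 genes, beside 1.11% of all genes. These 11 were Ciita, Cd74 and 9 class II chain genes, and none was of the class I side. In 0 of the 53 did all 4 lie below the others, beside 0.832% of all genes. The median difference was 1.14 over the 12 class II chain genes and 0.11 over the 30 class I chain genes, with 0.01 over all genes tested.

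On the class I side the samples numbered 2 differed from each other. B2m measured 50567 in A2, 34970.1 in B2, 39233 in C2 and 37519.7 in G2, against 28869 to 36546 in the other 20 samples with a median of 32296. A2, C2 and G2 lay above the other 20 samples and B2 lay among them. The difference was 0.34 on the log2 scale (SE 0.062, limma adjusted p = 0.00042). Nlrc5, the class I counterpart of Ciita, measured 6924 in A2, 3418 in B2, 4216 in C2 and 2542 in G2, against 2271 to 3438 in the other 20 samples with a median of 2725. A2 and C2 were above the rest, while B2 and G2 were within the range of the others. Its difference was 0.54 on the log2 scale (SE 0.14, limma adjusted p = 0.00827).

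The transporter and the loading complex feed peptides to class I. Tap1 measured 20512 in A2, 8538 in B2, 11601 in C2 and 6026 in G2, against 5781 to 8828 in the other 20 samples with a median of 6823. Only A2 and C2 lay above the other 20 samples, and G2 was near their low end. Tap1 was higher by 0.61 on the log2 scale (SE 0.16, limma adjusted p = 0.00901). Tap2, the other subunit, measured 11261 in A2, 7184 in B2, 7877 in C2 and 6055 in G2, against 5822 to 8044 in the other 20 samples with a median of 6694, and A2 alone was above the others. Its difference of 0.23 on the log2 scale (SE 0.096, limma adjusted p = 0.0921) did not pass. Tapbp (tapasin), which holds empty class I molecules at the transporter, measured 9445 in A2, 4912 in B2, 5764 in C2 and 4406 in G2, against 3670.1 to 4736 in the others. A2, B2 and C2 were above them and G2 was not. Its difference was 0.52 on the log2 scale (SE 0.11, limma adjusted p = 0.00141).

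Psmb8, Psmb9 and Psmb10 are the catalytic subunits that turn the proteasome into the immunoproteasome. Psmb9 measured 15216 in A2, 6888 in B2, 8707 in C2 and 5581 in G2, against 4715 to 6609 in the other 20 samples with a median of 5279. Psmb8 measured 8274 in A2, 4278 in B2, 4932 in C2 and 3971 in G2, against 2813 to 4037 in the others, and Psmb10 measured 11145 in A2, 5661 in B2, 6862 in C2 and 4314 in G2, against 3847 to 5318. All 3 were highest in A2, next in C2, then in B2, and lowest of the 4 in G2. Their differences were 0.66 (adjusted p = 0.00141), 0.66 (adjusted p = 0.000181) and 0.50 (adjusted p = 0.00634) by limma on the log2 scale. The 3 subunits of the constitutive proteasome that they replace (Psmb5, Psmb6 and Psmb7) were called in 0 of 3 by limma, with a median difference of 0.14, and Psmb5 and Psmb7 had an unadjusted p under 0.05, as 31.5% of all genes did. Without B2, 1 of the 3 was called higher, at a median difference of 0.14, and without G2 all 3 were, at a median of 0.20. The share of all genes called in these runs is not given, so the counts cannot be judged against it.

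Of the class I chain genes 6 of 30 were higher (H2-D1, H2-K1, H2-K2, H2-Q4, H2-Q2 and H2-Bl) and 1 was lower (H2-T24). Of all genes 11.0% were higher and 9.74% lower. H2-D1, a classical class I heavy chain, measured 61593 in A2, 48599.9 in B2, 47441 in C2 and 41669.9 in G2, against 35460.1 to 44829 in the other 20 samples with a median of 38564. A2, B2 and C2 lay above the other samples and G2 among them. H2-D1 was higher by 0.34 on the log2 scale (SE 0.070, limma adjusted p = 0.00114). H2-K1 was higher by 0.30 (adjusted p = 0.00339) and H2-K2 by 0.28 (adjusted p = 0.00949). The other 3 differed by 0.19 to 0.27, with adjusted p from 0.025 to 0.0328, and all 3 lost the call when samples were scaled to their 75th percentile. H2-T24, a gene of the non-classical T group, measured 8206 in A2, 9011 in B2, 11046 in C2 and 7627 in G2, against 9331 to 15004 in the other 20 samples with a median of 11144. It was lowest in G2, A2 and B2, while C2 lay near the median of the others. Its difference was -0.37 on the log2 scale (SE 0.070, limma adjusted p = 0.000505). The 23 class I chain genes not called ran from -0.27 to 0.74, and H2-Ke6, at 0.12 (adjusted p = 0.667), was not called.

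Because 1 sample can carry a mean of 4, each sample numbered 2 was also set against the other 5 samples of its own letter. The medians over the 12 class II chain genes were 1.31 in A2, 1.23 in B2, 0.80 in C2 and 1.12 in G2 on the log2 scale, and all 12 genes were above 0 in each of the 4. Over the 6 peptide supply genes they were 1.25 in A2, 0.33 in B2, 0.60 in C2 and -0.05 in G2, with 6, 6, 6 and 2 genes above 0. Over the 20 class I chain genes with a mean of at least 100 they were 0.39, 0.14, 0.24 and -0.02. The medians over all genes ran from 0.01 to 0.02, so class II was high in all 4 samples, and the class I side was high in A2 and less so in C2 and B2. By fold of the letter's other 5 samples, Ciita was at 4.09, 2.70, 2.51 and 2.67 in A2, B2, C2 and G2, and Tap1 at 3.02, 1.26, 1.71 and 0.827. With 1 sample for each letter and number, these differences among A2, B2, C2 and G2 could not be tested.

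**Figure D4:**
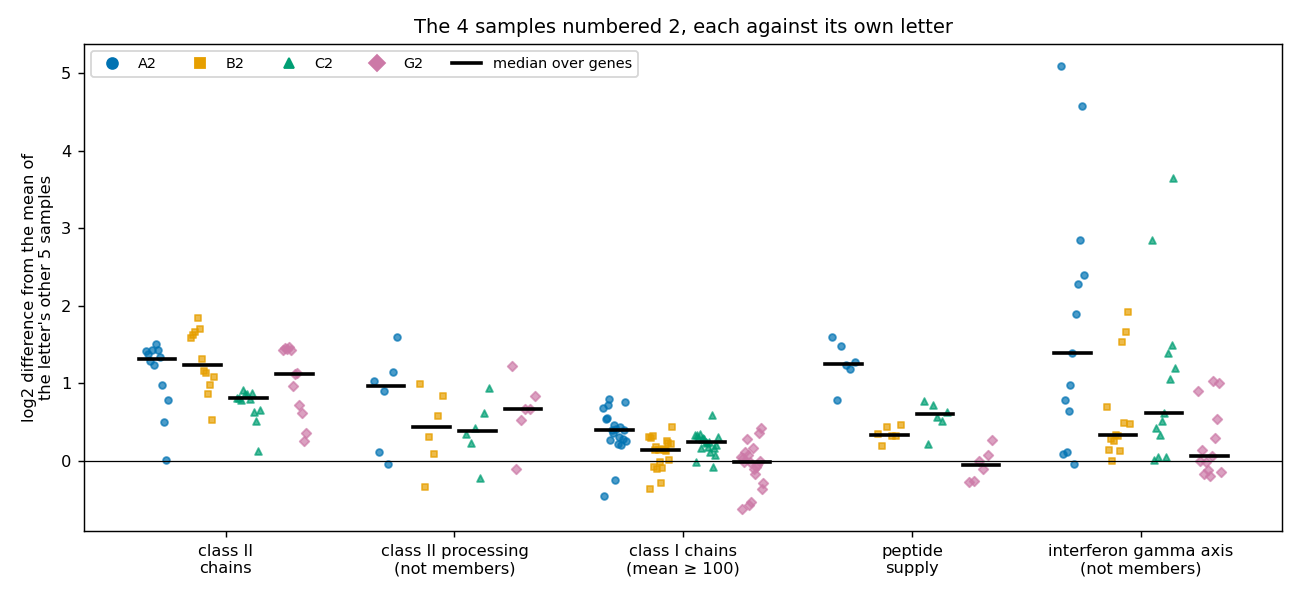
Log2 difference of each sample numbered 2 from the mean of the other 5 samples of its letter, for the genes of 5 lists, with each point a gene and each bar the median over the list. The class II chain medians run from 0.80 to 1.31 in all 4 samples, whereas the peptide supply medians run from -0.05 in G2 to 1.25 in A2.

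Without A2 and C2, a choice made after seeing the data, 16 of the 53 genes were called in the contrast of number 2, beside 9.21% of all genes, and 14 of them were higher, beside 4.86%. These 14 were 10 class II chain genes, Cd74, Ciita, B2m and Psmb8, and the 2 lower were H2-T24 and H2-T-ps. Ciita was then at 1.37 and H2-Ab1 at 1.67. Tap1 was at 0.06 (limma adjusted p = 0.845), Nlrc5 at 0.10 (adjusted p = 0.701), Psmb9 at 0.21 (adjusted p = 0.198), Psmb10 at 0.09 (adjusted p = 0.65) and Tapbp at 0.19 (adjusted p = 0.141). H2-D1 stood at 0.21 (adjusted p = 0.0966) and H2-K1 at 0.19 (adjusted p = 0.207). The difference of Tap2 changed sign, to -0.03 (adjusted p = 0.921). Leaving out A2 alone took the class I chain genes called higher from 6 to 1 and the peptide supply genes from 5 to 3, beside 5.77% of all genes. It ended the calls of Tap1, Nlrc5, Psmb10, H2-K1, H2-K2, H2-Q2, H2-Q4 and H2-Bl.

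The classes were compared directly by a ratio within each sample. The log2 ratio of Cd74 to B2m averaged 1.59 ± 0.46 in the samples numbered 2 (SD, n = 4) and 0.96 ± 0.16 in the other 20. By sample it was 1.29 in A2, 2.09 in B2, 1.12 in C2 and 1.88 in G2, and the highest of the other 20 was 1.28. B2 and G2 lay clear of those, A2 was about level with their highest and C2 was below it. Over the 6 numbers the ratio differed by a permutation test with the F statistic (F = 7.66, permutation p = 0.00038, adjusted p = 0.00076 over the 4 ratio tests, two-sided). The log2 ratio of Ciita to Nlrc5 averaged -0.15 ± 0.32 in the samples numbered 2 (SD, n = 4) and -1.16 ± 0.21 in the others, and the groups did not overlap. It too differed over the numbers (F = 13.8, permutation p = 0.0002, adjusted p = 0.00076). Without the 4 samples numbered 2 the adjusted permutation p of Ciita to Nlrc5 over the numbers was 0.413. The ratio of Cd74 to B2m was not high in number 2 alone. It averaged 1.2 ± 0.1 in number 3 and from 0.83 to 0.94 in numbers 1, 4, 5 and 6 (SD, n = 4). A3, B3 and C3, at 1.23, 1.28 and 1.23, lay above C2. Over the letters neither ratio passed (adjusted permutation p = 0.932 for both).

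A class score shows the same contrast over many genes of each class. Each chain gene's log2 value was centred on its 24-sample mean, and the centred values were averaged over the class in each sample. The class II score over all 12 genes was 0.94 in A2, 1.08 in B2, 0.56 in C2 and 0.88 in G2, and from -0.55 (A4) to 0.19 (G6) in the others. The class I score over the 20 genes with a mean of at least 100 was 0.33 in A2, 0.06 in B2, 0.18 in C2 and -0.05 in G2, and from -0.18 to 0.20 in the others. Over all 30 class I chain genes it was 0.31 in A2, 0.07 in B2, 0.09 in C2 and -0.10 in G2, and from -0.17 to 0.21 in the others. Only A2 stood above the other numbers in class II and in either class I score.

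**Figure D5:**
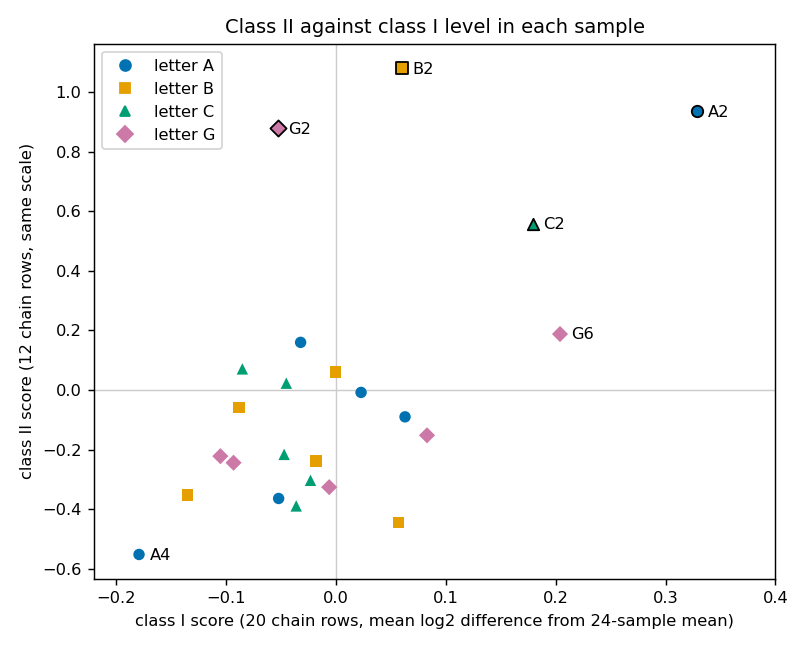
Class II score against class I score in each of the 24 samples, both as mean log2 difference from the 24-sample mean, marked by letter and with the samples numbered 2 outlined. The 4 outlined samples lie at 0.56 or above on the class II axis and spread from -0.05 to 0.33 on the class I axis.

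The genes around the pathway were taken from lists that do not overlap with the 53. Of 6 genes that prepare class II peptides, 4 were higher in number 2 (11.0% of all genes) and 0 lower (9.74%), with a median of 0.65. They were Ifi30, the thiol reductase of the endosome, at 1.05 (adjusted p = 1.38e-07), Ctss, the protease that trims Cd74, at 0.90 (adjusted p = 2.67e-06), Lgmn at 0.75 (adjusted p = 1.48e-06) and Ctsb at 0.54 (adjusted p = 1.43e-05). Ctsl and Ctsd, at -0.03 and 0.12, did not pass. The 7 factors that bind the X and Y boxes (Rfx5, Rfxank, Rfxap, Nfya, Nfyb, Nfyc and Creb1) were called in 0 of 7 by limma, with a median of -0.01. At an unadjusted p under 0.05 there were 4, Rfx5 and Rfxank with positive and Creb1 and Nfyb with negative differences, where 31.5% of all genes passed. Without G2, 1 of 7 was called, with a median of 0.01, and the share of all genes in that run is not given.

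Of 8 further genes of class I peptide processing, 6 were higher (11.0% of all genes) and 0 lower (9.74%), with a median of 0.30. Among them were the proteasome activator subunits Psme2 at 0.52 (adjusted p = 0.00771) and Psme1 at 0.32 (adjusted p = 0.00595), and the chaperone Pdia3 at 0.34 (adjusted p = 0.00469). This count rested on A2: without it 0 of 8 were called by limma, where 5.77% of all genes were higher, and 6 of 8 had an unadjusted p under 0.05, beside 22.8% of all genes. Psme2 was then at 0.24 (adjusted p = 0.0942), Psme1 at 0.17 (adjusted p = 0.0835) and Pdia3 at 0.20 (adjusted p = 0.0748). Of 13 genes of the interferon gamma axis, 10 were higher (11.0% of all genes) and 0 lower (9.74%), with a median of 0.53. Without A2 there were 7 higher (5.77% of all genes), with a median of 0.27. Without A2 and C2 there were 2 higher (4.86% of all genes), Irf8 at 1.37 and Cxcl9 at 1.03, with a median of 0.14. Ifng, the cytokine itself, measured 100 in A2, 5.96 in B2, 22.3 in C2 and 5.20 in G2, against 0.01 to 5.73 in the others. Cxcl10, a chemokine it induces, measured 832 in A2, 98.5 in B2, 277 in C2 and 41.8 in G2, against 13.0 to 77.2. Irf1, a transcription factor it induces, measured 15241 in A2, 6298 in B2, 7988 in C2 and 5052 in G2, against 4585 to 6866. In all 3 genes A2 was highest and C2 second, and G2 lay within the range of the other numbers, the order seen in Tap1, Psmb9 and Nlrc5. Irf8, a transcription factor of dendritic cells, macrophages and B cells, measured 7420.4 in A2, 5450.0 in B2, 4839.6 in C2 and 5046 in G2, against 1604 to 4404, and was high in all 4 samples, as class II was. Its difference was 1.47 (adjusted p = 2.15e-06). The part of these genes in the MHC differences was not tested.

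Markers of the cells that carry class II were read beside these values. The 6 B cell markers were called in 0 of 6 by limma, at an unadjusted p under 0.05 in 1 (Cd79b), where 31.5% of all genes passed, and summed to 2707 to 3937 in the samples numbered 2 and 1972 to 5178 in the others. Of all genes 11.0% were higher and 9.74% lower, which stands beside each marker count here. Of 6 dendritic cell markers, 2 were higher (Flt3 and Xcr1), 1 was lower (Zbtb46), and the sums were 6422 to 7816 and 5706 to 7438. Xcr1, the receptor of a cross-presenting subset, measured 85.7 in A2, 454 in B2, 84.9 in C2 and 529 in G2, against 23.9 to 181 in the others, and so was high in B2 and G2 only. Of 6 macrophage markers, 3 were higher (Cd68, Siglec1 and Adgre1), with sums of 34909.9 to 40544 and 25609.6 to 58431, and Marco was at 0 in B2. Of 8 T and NK cell markers, 7 were higher, with sums of 7795 to 11816 and 4868 to 10899.9. Of 6 alveolar type 2 markers, 2 were higher (Sftpa1 and Lamp3), with sums of 1225256 to 1620528 and 1085273 to 1613016. Without A2 and C2, 4.86% of all genes were higher. The counts of higher markers were then 2 of 6 for B cells, 3 of 6 for dendritic cells and 2 of 6 for macrophages. They were 5 of 8 for T and NK cells and 3 of 6 for alveolar type 2 cells. Dendritic cells had 1 higher without B2, a run for which the share of all genes is not given. Alveolar type 2 cells had 1 higher without A2, beside 5.77% of all genes. The sums of all 5 lists overlapped between number 2 and the other numbers. A sum follows its highest genes, which for macrophages are Mrc1 and Csf1r, so the overlap does not show that cell content was alike. Cd68 measured 4425 to 6760 in number 2 against 1878 to 4428, and Siglec1 2178 to 3447 against 722 to 2347. Mrc1 was not called, at 7980 to 14894 against 9427 to 33463 with a median of 12600. Against its letter's other samples it was at -0.79 in A2, -0.10 in B2, -0.74 in C2 and 0.16 in G2 on the log2 scale. What these cells contribute to the MHC differences was not tested.

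In the contrasts of the 5 other numbers, number 2 was part of the rest, so a gene high in number 2 reads low elsewhere. There 13 genes were called for number 1 (11.0% of all genes), 1 for number 3 (4.42%), 8 for number 4 (4.20%), 7 for number 5 (1.61%) and 3 for number 6 (7.25%). Several of these counts changed when 1 sample was left out. They became 0 for number 4 without A4 and 2 without B4, 0 for number 5 without B5 or C5 and 2 without G5. For number 3 they became 0 without B3 or C3 and 3 without G2, and for number 6 they became 1 without A6, B6 or G6. The count of number 4 also became 5 without any 1 of B6, C1, C3, C6, G1, G5 or G6, none of which is numbered 4. The share of all genes called in these runs is not given. A general loss of calls with fewer samples therefore cannot be told apart from a change in these genes. To take number 2 out of the rest, the numbers were compared again without its 4 samples, a choice made after seeing the data. By the F test over the 5 numbers left, 17 of the 53 genes were called, beside 24.6% of all genes. For numbers 4 and 5 none of the 53 was called by limma, beside 5.64% and 0.492% of all genes, and at an unadjusted p under 0.05 there were 3 and 6, beside 20.3% and 13.1%.

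In number 3, 13 of the 53 genes were called, beside 9.63% of all genes. The 10 higher (4.95% of all genes were) were 8 class II chain genes, Cd74 and Ciita. By limma on the log2 scale Ciita was at 0.26 (adjusted p = 0.0214), Cd74 at 0.24 (adjusted p = 0.0259) and H2-DMb1 at 0.37 (adjusted p = 0.00334). Cd74 measured 78778 in A3, 69957 in B3, 71319 in C3 and 63135 in G3, against 52616 to 73864 in numbers 1, 4, 5 and 6. A3 alone lay above those, and B3, C3 and G3 lay among them. H2-Oa and H2-Ob, the DO genes, were at -0.19 and -0.04 and were not called. The 3 lower (4.68% of all genes were) were the class I chain genes H2-M5, H2-T24 and H2-T-ps. In the same samples 4 of 6 B cell markers were lower, and 5 of 6 alveolar type 2 markers, 3 of 6 macrophage markers, 2 of 6 dendritic cell markers (Flt3 and Clec9a) and 5 of 6 class II processing genes were higher. Of 8 T and NK cell markers, 2 were lower there (Cd8a and Gzma). Their part in the class II values was not tested.

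Number 6 showed another combination. There 5 of the 53 genes were called, all higher, beside 8.67% of all genes called and 4.29% higher. H2-Oa was higher by 0.75 on the log2 scale (SE 0.10, limma adjusted p = 0.000208) and H2-Ob by 0.45 on the log2 scale (SE 0.080, limma adjusted p = 0.00139), and the others were H2-Pa at 0.79 (adjusted p = 0.0371), Ciita at 0.27 (adjusted p = 0.0214) and H2-T24 at 0.18 (adjusted p = 0.049). H2-Oa measured 653 in A6, 598 in B6, 589 in C6 and 653 in G6, against 266 to 468 in numbers 1, 3, 4 and 5. H2-Ob measured 521, 522, 498 and 515 in the same order, against 319 to 455. Neither gene overlapped with those numbers, and the share of all genes for which this holds is not given. Cd74, at 0.05 (adjusted p = 0.708), was not called. All 6 B cell markers were higher there, with a median of 0.89 and sums of 4329 to 5178. So were 7 of 8 T and NK cell markers and 1 of 6 dendritic cell markers (Ccr7). Of the alveolar type 2 markers 2 of 6 were lower, beside 4.38% of all genes. Their part in the DO genes was not tested.

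In number 1, 3 genes were called without number 2, beside 14.2% of all genes. H2-Aa and H2-Eb1 were lower, at -0.22 and -0.28 on the log2 scale (7.37% of all genes were lower), and H2-T24 was higher, at 0.21 (6.87% were higher). In the same samples 4 of 8 T and NK cell markers were lower, 2 of 6 macrophage markers were lower (Siglec1 and Cd68) and 1 higher (Adgre1). Of 6 dendritic cell markers 1 was lower (Cd83), and of 6 class II processing genes 2 were lower (Ctss and Ctsd) and 1 higher (Ctsl), while the B cell and alveolar type 2 markers were called in 0 of 6 each. At an unadjusted p under 0.05 there were 2 B cell markers (Cr2 and Pax5) and 0 alveolar type 2 markers, where 26.2% of all genes passed. Their part in the MHC values was not tested. H2-T24, a class I chain gene, was called lower in number 2 and higher in numbers 1 and 6 over the 24 samples. Without the samples numbered 2 it was again called higher in numbers 1 and 6. It was called lower in number 3 only without those samples.

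The class II chain genes also moved together more closely than the class I chain genes. This is a description, since all genes of a sample share its library and depth. Over the 24 samples the median Pearson r of log2 values was 0.95 among pairs of 11 class II genes, 0.39 among pairs of 20 class I genes and 0.36 between the classes. Over the 20 samples not numbered 2 these were 0.85, 0.26 and 0.17. Relations between 4 pairs of members were planned over the 24 samples. There r was 0.9 for Ciita with Cd74, 0.78 for Nlrc5 with B2m, 0.69 for Cd74 with B2m and 0.95 for Tap1 with Psmb9. Within numbers these were 0.25, 0.66, 0.13 and 0.97. Without the 2 samples farthest from the median of the first gene they were 0.85, 0.15, 0.83 and 0.71. Since the samples numbered 2 stand apart, the pairs were also read in the other 20, a choice made after seeing the data. In those 20, Ciita with Cd74 gave r = 0.71 (adjusted permutation p = 0.00188 over 4 pairs) and Spearman's rho = 0.66 (adjusted permutation p = 0.00892). Without the 2 samples farthest from the median of Ciita, r was 0.65, and within numbers it was 0.55. Nlrc5 with B2m gave r = 0.15 and rho = 0.08 (adjusted permutation p = 0.522 and 0.733), r was -0.28 without the 2 farthest samples, and within numbers it was 0.18. Cd74 with B2m gave r = 0.37 and rho = 0.42 (adjusted permutation p = 0.144 and 0.0866), r was 0.04 without the 2 farthest samples, and within numbers it was 0.69. Tap1 with Psmb9 gave r = 0.70 and rho = 0.50 (adjusted permutation p = 0.00188 and 0.0506), r was 0.34 without the 2 samples farthest from the median of Tap1, and within numbers it was 0.83. Over these 20 samples the pooled relation of Tap1 with Psmb9 rests on those 2 samples.

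As a description, on which the samples numbered 2 weigh, the genes outside the set with the highest Pearson r with Cd74 over the 24 samples, among 21876 genes with a mean of at least 10, were Otulinl (0.94), Cd300c (0.93), Rab7b (0.93), Slamf9 (0.93) and Cd300c2 (0.92). Over the 20 samples not numbered 2 their r was 0.75 to 0.86. For B2m they were AW112010 (0.93), H2afz (0.91), Psme1 (0.91), Sbno2 (0.91) and Gm11687 (0.90), with 0.52 to 0.71 over the 20.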

How the data were processed

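Messenger RNA of 24 rat lung samples was sequenced on an Illumina platform, per the labels' protocols. The authors deposited 1 table of signal values per gene, not whole and of nearly equal sums, read here as normalized read counts. The normalization and the counting are not given in the sources used here. STAR and GRCm38 are named in the submitters' processing notes, with no role or version. Depth is unknown, so no counting intervals are given.

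Values were analysed as log2(value + 1) with limma-trend (limma 3.58.1, R 4.3.3) after a filter at a mean of 0.5, with Benjamini-Hochberg adjustment over 30667 genes and a threshold of 0.05. Fold changes on this scale understate the change of low genes. One model held the 4 letter means and another the 6 number means. Both were tested on simulated data. Ratios and gene pairs were tested with 100000 permutations (Python 3.11.15, scipy 1.17.1). Genes named are the 10 of the rule, the 4 class I and 4 class II chain genes with the highest means, any other member called, and the 5 genes most like Cd74 and B2m. Other genes, such as the pathway genes, the cell markers and the members not called, were named after their values were seen, as examples of their lists. Members and lists were chosen with earlier results of these data known. Promoter sequences are RefSeq entries of GRCr8, which 8 of the 10 genes named one by one have, and Ciita and Nlrc5 are not shown. Cd74 has an entry but was counted neither with the class II chain genes nor with the class I side genes in the motif counts. The alternatives were another pseudocount (0.1), a filter at a mean of 10, no filter, quantile and 75th percentile scaling, a replicate block, and leaving out samples.

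The numbers were checked as pairs by the correlation of deviations from letter means over 21922 genes. Between B and A it was 0.17 to 0.59 and between C and B 0.13 to 0.60 for the 6 same-number pairs, all above 0.1, and in the other 4 pairs of letters at least 1 was at or below 0.1. No label states a pairing.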

Additional observations from a re-analysis of the deposited data

Results flagged for a closer look

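In each letter and each number, the highest and lowest sample was compared with the rest by Dixon's criterion, for the named genes and the class scores and ratios. Of 220 groups, 52 held a sample far from the others, where chance gives about 11.0, and 45 of the 52 were samples numbered 2. The same 24 samples and genes that move together recur over these groups, so the 52 are not separate findings. Genes were read here in normalized counts, not on the log2 scale. The 44 found within letters, in normalized counts unless said otherwise, were these.

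Ciita stood above the rest of its letter at 5265 in A2, 3307 in B2, 3167 in C2 and 3037 in G2, and H2-Ab1 at 33167, 43862, 22770 and 35437 in the same samples. Cd74 stood out at 123297 in A2, 148634 in B2 and 138399 in G2. H2-Ea-ps did so at 54482 in A2, 60835 in B2 and 56749.9 in G2, H2-Aa at 43073, 49755 and 47476, and H2-Eb1 at 32287, 41121 and 36901 in the same 3 samples. In these 4 genes C2 was not far enough from the rest of letter C. The class II score stood out at 1.08 in B2, the log2 ratio of Cd74 to B2m at 1.88 in G2, and that of Ciita to Nlrc5 at -0.05 in B2 and 0.26 in G2.

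On the class I side the samples were A2 and C2. B2m stood out at 50567 in A2 and 39233 in C2, Tap1 at 20512 and 11601, Tapbp at 9445 and 5764, Psmb8 at 8274 and 4932, and Psmb10 at 11145 and 6862. Nlrc5 stood out at 6924 and 4216 and H2-K1 at 13266 and 11181. Psmb9 did so at 15216 in A2, 8707 in C2 and also 6888 in B2. Tap2 stood out at 11261 and H2-D1 at 61593, both in A2 alone, and H2-K2 at 9503 in C2 alone. No class I side gene of this list stood out in letter G.

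The 8 found within numbers were spread over 5 numbers. Ciita in A2, at 5265, was far above the other samples numbered 2. In number 5, A5 was high in B2m at 33799 and in H2-D1 at 40926. In number 6, G6 was high in Tap1 at 8828 and in the class I score over 30 genes at 0.21. In number 1, G1 was high in Psmb8 at 3283. In number 4, A4 was low in H2-Aa at 12825 and in H2-Eb1 at 11072.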

How the results depend on the processing

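No gene of the set was called between letters under any alternative run, including each sample left out (0 to 0) and the replicate block, in which the sample number is added as a term (0). With the letter as the block, the numbers F test called 19 genes in place of 21, number 4 called 6 in place of 8, and the other number contrasts gave 13, 27, 1, 7 and 3, as before. Leaving out each sample in turn gave 18 to 27 genes for the F test, 10 to 14 for number 1, 19 to 28 for number 2, 0 to 3 for number 3, 0 to 10 for number 4, 0 to 10 for number 5 and 1 to 3 for number 6. The 1 gene of number 3 became 2 with a filter at a mean of 10, 0 with quantile normalization and 2 with 75th percentile scaling. The 8 of number 4 became 0 without A4 and B4. Settings chosen after seeing the data moved more. Without A2 and C2, number 2 gave 16 in place of 27, and Tap2 reversed to -0.025 on the log2 scale. Without the samples numbered 2, number 1 gave 3, number 3 gave 13, number 4 gave 0, number 5 gave 0 and number 6 gave 5. The Ciita to Nlrc5 ratio over numbers then gave F = 1.3, and r was 0.15 for Nlrc5 with B2m and 0.37 for Cd74 with B2m. For the last settings fewer samples were tested, and for the others the cause was not tested. For the named genes 865 alternative values kept direction and call, 29 lost the call, 1 gained it (Tap2 without G2) and 1 reversed. Depth is unknown, so the precision of low genes is not known either.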
